A study of Mus musculus with 12 samples.

Results

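The genes described here encode the nuclear part of the oxidative phosphorylation machinery of mitochondria. They were chosen by symbol (Ndufa, Ndufb, Ndufc, Ndufs and Ndufv genes, Sdha to Sdhd, Uqcr genes, Cox4 to Cox8 genes and Atp5 genes) and by an estimated read count of at least 10 in at least 3 libraries. Of 16239 genes with a symbol in the files, 90 matched the symbols and 86 of these reached the minimum, against 12635 genes that reached it in all. The 86 genes fell into complex I with 36 genes, complex II with 4, complex III with 8, complex IV with 14 and complex V with 15. The remaining 9 are not subunits: the symbol pattern also catches the assembly factors Ndufaf1 to Ndufaf8 and the coupling factor gene Atp5s. Ndufa4 and Ndufa4l2 are counted here under complex IV, where the Ndufa4 protein is known to sit. All Cox genes, Cox7a2l included, are counted under complex IV by their symbol alone. Genes encoded by mitochondrial DNA were not analysed here.

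Total RNA of flash-frozen liver from 129/B6 mice aged 10 months was sequenced in 12 libraries, 3 in each of 4 groups. The groups cross the diets that the labels call LF and HF, fed for 8 months, with 2 genotypes. Floxed mice have loxP sites in the TSP1 gene and are labelled WT; TSP1 is thrombospondin 1, a glycoprotein of the extracellular matrix. Knockout mice are labelled as lacking TSP1 specifically in macrophages. The labels name neither a Cre line nor single animals, and the spread that each p-value rests on may therefore be technical in part. The study's question was the role of TSP1 from macrophages in fatty liver disease with obesity.

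Oxidative phosphorylation couples the oxidation of NADH and succinate to the making of ATP. Complex I takes electrons from NADH and complex II takes them from succinate, complex III passes them from ubiquinol to cytochrome c, and complex IV passes them to oxygen. Complexes I, III and IV pump protons across the inner mitochondrial membrane, and complex V, the ATP synthase, lets them flow back to drive ATP formation. The hepatocyte is rich in mitochondria and uses this pathway to burn fatty acids and to pay for glucose and urea synthesis. All 4 subunits of complex II are nuclear, whereas complexes I, III, IV and V also hold subunits made inside the mitochondrion, so that nuclear and mitochondrial genes have to be expressed together.

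Nuclear respiratory genes are known to share binding sequences for the factors NRF1 and GABP in their promoters. These sequences were therefore looked for in all members with a promoter window. The RefSeq table of GRCm38.p6 gave a window from 250 bases before to 50 after the start for 73 of the 86 genes (78 windows in all). On both strands, GCGCA and GCGC with any 1 base between them (NRF1) stood in 25.6% of these windows against 4.6% of all 32851 windows of the same length. The letters CCGGAAG (GABP) stood in 23.1% against 8.9%, AANATGGC (YY1) in 24.4% against 6.1%, and TCAAGGTCA (the estrogen-related receptors) in 2.6% against 0.4%. Matches of different motifs overlapped in 0 cases. The 150 bases before the start are printed here, 5′ to 3′ along the gene, for genes of each complex that were picked after the matches were seen. The positions are those of the RefSeq table, since the submitters' build is mm9. Capitals mark an NRF1 match or CCGGAAG, which reads CTTCCGG where it lies on the other strand.
Sdha, chr13:74350241-74350390, minus strand: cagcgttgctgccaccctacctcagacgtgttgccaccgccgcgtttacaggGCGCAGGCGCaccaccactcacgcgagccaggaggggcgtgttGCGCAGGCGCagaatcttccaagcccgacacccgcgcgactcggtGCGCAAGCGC
Sdhd, chr9:50603850-50603999, minus strand: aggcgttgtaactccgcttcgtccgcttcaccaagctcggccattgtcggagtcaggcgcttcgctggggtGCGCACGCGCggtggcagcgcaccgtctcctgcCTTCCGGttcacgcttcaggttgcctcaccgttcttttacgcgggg
Ndufs3, chr2:90904722-90904871, minus strand: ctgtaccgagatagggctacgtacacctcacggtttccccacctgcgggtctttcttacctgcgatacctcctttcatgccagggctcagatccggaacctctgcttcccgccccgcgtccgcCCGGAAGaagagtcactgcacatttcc
Uqcrh, chr4:116075071-116075220, minus strand: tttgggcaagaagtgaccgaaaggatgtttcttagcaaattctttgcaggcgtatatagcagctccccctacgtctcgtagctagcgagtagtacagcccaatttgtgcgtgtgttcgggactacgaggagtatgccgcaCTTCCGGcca
Cox6a1, chr5:115348959-115349108, minus strand: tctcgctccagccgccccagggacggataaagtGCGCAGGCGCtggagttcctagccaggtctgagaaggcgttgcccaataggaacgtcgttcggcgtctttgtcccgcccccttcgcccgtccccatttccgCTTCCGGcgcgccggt
Atp5h, chr11:115419920-115420069, minus strand: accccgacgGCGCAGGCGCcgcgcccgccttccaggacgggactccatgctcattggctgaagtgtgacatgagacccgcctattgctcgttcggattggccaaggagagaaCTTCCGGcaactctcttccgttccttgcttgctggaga
Sdha, the catalytic flavoprotein of complex II, held 3 NRF1 matches, the first bases of which lie 98, 55 and 10 bases before its start. Cox6a1, Sdhd and Atp5h held a match of each kind in the stretch shown, while Ndufs3 and Uqcrh held a GABP match only. A match is a run of letters and no measured binding. The genes with an NRF1 match had nearly the same median differences as those without (for example a log2 difference of -0.34 over 19 genes against -0.31 over 54 between diets in floxed mice). Wider gaps were seen for other motifs. With a GABP match the median was 0.26 over 18 genes against 0.07 over 55 in the interaction of diet and genotype. With a YY1 match it was -0.10 over 19 genes against -0.21 over 54 between genotypes on HF. These gaps were not tested.

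Some libraries stood apart and bear on every result. Replicates 2 and 3 of LF knockout were far more alike than most libraries of a group, with a chi-square per degree of freedom of 2.89 over 8454 genes, and so were replicates 1 and 2 of HF floxed at 10.78. The other pairs within groups lay at 60.82 to 627.52. They still differed by more than sampling noise and were kept as separate libraries. The biological coefficient of variation was 52.9% within HF knockout against 23.3 to 28.2% within the other groups. Thbs1, which encodes TSP1, stood at 0.06 to 0.75 FPKM in the 6 floxed libraries and at 0.08 to 1.63 FPKM in the 6 labelled knockout. Its mean was higher in the libraries labelled knockout on both diets, with overlapping groups: 0.39 against 0.08 FPKM on LF and 1.07 against 0.60 FPKM on HF. Thbs1 thus did not bear out the genotype labels. It gave no check of them in whole liver, where macrophages are a minority of cells, and knockout is used here as the label of those libraries. All 10 hepatocyte markers were detected, with a sum of 40652 to 107733 FPKM, and the 7 striated muscle markers in the files, whose tissue uses other isoforms of these subunits, summed to at most 0.75 FPKM.

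Levels between genes were compared as FPKM, which is scaled to gene length and to library size. Complex IV genes were the highest, with a median of 313 FPKM over its 14 genes. Complex III followed at 205, complex V at 196, complex II at 145 and complex I at 102 FPKM, and the assembly and coupling factors lay far lower at 7.16 FPKM. Cox6a1, the ubiquitous form of a small complex IV subunit, was the highest gene of all at 690 FPKM averaged over the 12 libraries, and its library values ran from 470 to 926 FPKM. The highest genes of the other complexes were Atp5b, the catalytic beta subunit of ATP synthase, at 451 FPKM, Uqcr11 of complex III at 397, Ndufb9, an accessory subunit of complex I, at 246 and Sdhb, the iron-sulfur subunit of complex II, at 168 FPKM. The lowest were Ndufa4l2, a paralog of Ndufa4 known to respond to hypoxia, at 1.85 FPKM, Ndufa11, an accessory subunit of complex I, at 24.03, Atp5g2, the least abundant gene of the ATP synthase ring, at 34.2, Sdhd, a membrane anchor of complex II, at 85.2 and Uqcrc2, a core protein of complex III, at 102 FPKM. Among the factors, levels ran from 1.55 FPKM for Ndufaf5 to 26.3 FPKM for Ndufaf8.

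Some subunits have several gene forms. In the Cox4i, Cox6a, Cox6b and Cox8 pairs, the form known from liver made up nearly all transcripts. In the library where it was lowest, the share of Cox4i1 in the summed FPKM of Cox4i1 and Cox4i2 was 99.92%. The lowest share of Cox6a1 in its pair was 99.88% and that of Cox8a 99.77%. The 4 genes under the count minimum were all such minor forms: Cox4i2, Cox6a2, Cox6b2 and Cox8b. Cox6b2, known from testis, had 33 and 20 estimated counts in HF knockout replicates 2 and 3 and at most 7 in the other 10 libraries. Cox7a1, the heart and muscle form, passed the minimum and held 3.53% ± 1.46 (SD, n = 3) of the summed Cox7a1 and Cox7a2 FPKM in LF floxed and 2.88 to 3.18% on average in the other groups. The membrane ring of ATP synthase is built from 1 mature peptide encoded by 3 genes, and Atp5g3 led it in all 12 libraries. Its share of the 3 genes' FPKM averaged 60.9% ± 6.24 for LF floxed, 66.9% ± 5.72 for LF knockout, 66.8% ± 3.17 for HF floxed and 60.3% ± 6.18 for HF knockout (SD, n = 3), and the groups overlapped. Atp5g1 held 22.3 to 42.4% by library and Atp5g2 2.42 to 8.86%.

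Summed over all 86 genes, the transcripts made up 1.23, 1.34 and 1.44% of the estimated counts of named genes in the LF floxed libraries and 1.38, 1.17 and 1.15% in LF knockout. They made up 1.35, 1.32 and 1.28% in HF floxed and 1.13, 0.661 and 1.15% in HF knockout. The groups averaged 1.34% ± 0.106, 1.23% ± 0.128, 1.32% ± 0.0381 and 0.981% ± 0.278 in that order (SD, n = 3). HF knockout replicate 2 stood apart from the other 11 libraries. By this share of counts, all 3 HF knockout libraries lay below all 3 LF floxed and all 3 HF floxed libraries, and the other pairs of groups overlapped. After scaling by edgeR's TMM factors to normalised CPM (counts scaled to library size, the scale of the group comparisons), HF knockout replicate 2 was the lowest of the 12 libraries for 77 of the 86 genes. Its median deviation from each gene's mean over the libraries was -0.82 on the log2 scale, and 83 of the 86 genes lay under their own mean there. LF floxed replicate 3 was the highest library for 43 genes, with a median deviation of 0.41. HF knockout replicate 1 was the highest for 14 genes. Its median deviation of 0.27 lay above those of the HF floxed libraries (-0.03, -0.18 and 0.17), unlike its share of the counts. The low values of HF knockout replicate 2 spanned the complexes: complex I made up 0.173% of its counts against 0.297 to 0.389% in the other 11 libraries, complex II 0.051% against 0.077 to 0.112%, complex III 0.083% against 0.139 to 0.199%, complex IV 0.129% against 0.212 to 0.324%, and complex V 0.218% against 0.348 to 0.462%. The same library had the highest summed hepatocyte markers (107733 FPKM against 40652 to 71911 in the others) and the highest sums of monocyte and lipid-associated macrophage markers (776 FPKM against 39.1 to 211, over 9 genes) and of cholangiocyte markers (755 against 21.8 to 109, over 6 genes). Spp1, the gene of osteopontin, is on both of these lists and made up 743 FPKM of each sum in that library, against 17.7 to 103 FPKM elsewhere. The part of these markers in the low values was not tested. In whole liver, fewer cells of a type and less RNA per cell cannot be told apart.

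**Figure D1:**
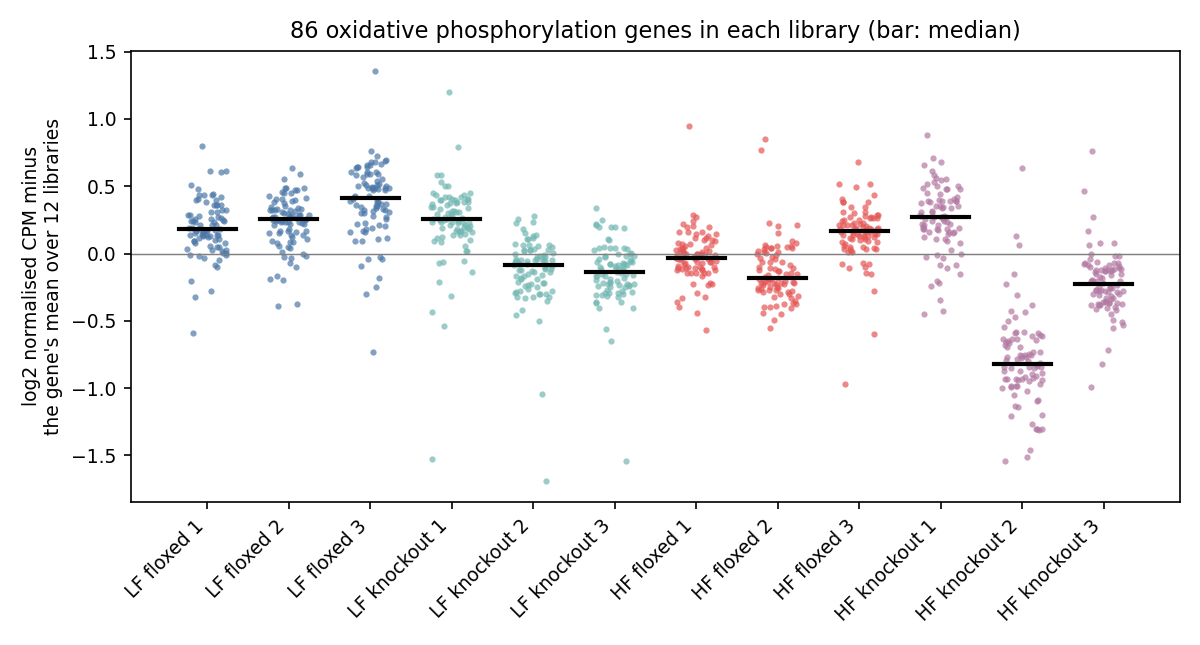
The vertical axis gives each gene's log2 normalised CPM minus its own mean over the 12 libraries, the horizontal axis the library; points are the 86 genes, bars their median. The bar lies at -0.82 in HF knockout replicate 2 and between -0.22 and 0.41 in the other 11 libraries.

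In floxed mice, where TSP1 is labelled intact, the HF diet was set against the LF diet. Of the 86 genes, 75 had a lower fitted mean on HF and 11 a higher one, with a median log2 difference of -0.31 against -0.00 over all 12587 genes tested. None passed edgeR's test at an adjusted p under 0.05 (0% of all genes did). At an unadjusted p under 0.05 stood 2 of the 86 genes, both lower on HF, against 12.2% of all genes in either direction (5.32% lower, 6.85% higher). In 35 genes all 3 HF libraries lay below all 3 LF libraries and in 3 all lay above, where the shares of all genes were 12.5 and 11.5%. DESeq2 called 0 of the 86 genes with 2 at an unadjusted p under 0.05 (14% of all genes). Limma on FPKM called 0, whereas limma voom with sample weights called 13 of the 86 and 1510 of all genes. The voom weights were highest for LF knockout replicates 2 and 3 (3.61 and 3.43) and HF floxed replicate 2 (2.74), all of them in near-identical pairs, and 0.18 to 1.8 in the other 9 libraries. A fit of the 6 libraries alone put 25 of the 86 at an unadjusted p under 0.05 (19.2% of all genes) and 0 at an adjusted one. With each near-identical pair averaged into 1 library, 0 of the 86 genes stood at an unadjusted p under 0.05 in each of the 5 comparisons, at medians of -0.27 here and -0.29 between diets in knockout mice.

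Uqcrh, the hinge protein that complex III uses near its cytochrome c1, had the smallest p. Its libraries held 145, 129 and 156 normalised CPM on LF and 89.2, 90.0 and 98.7 on HF. The 2 groups did not overlap, giving a log2 difference of -0.63 (SE 0.23, edgeR adjusted p = 0.328, unadjusted 0.0173). Ndufa6, an accessory subunit of complex I, held 188, 189 and 209 normalised CPM on LF and 140, 127 and 125 on HF, again without overlap. This was a log2 difference of -0.58 (SE 0.25, edgeR adjusted p = 0.391). Of complex V, Atp5o, the stalk protein that holds the head of ATP synthase, had the smallest p, with 183, 168 and 179 normalised CPM on LF against 129, 117 and 125 on HF (log2 difference -0.51, SE 0.25). The genes of smallest p in the remaining classes were Cox7c of complex IV, whose groups overlapped (log2 difference -0.54, SE 0.31), Sdhd of complex II (-0.37, SE 0.27) and Ndufaf6, an assembly factor of complex I (-0.57, SE 0.28). By complex the median log2 difference was -0.33 in I, -0.11 in II, -0.39 in III, -0.36 in IV, -0.31 in V and -0.01 among the factors. In complex I the 29 accessory subunits had a median of -0.36 with 18 non-overlapping lower, and the 7 core subunits, which belong to the electron-carrying arm of the complex, -0.26 with 1. All 14 complex IV genes were lower, 6 of them without overlap. The summed hepatocyte markers were also lower on HF in these mice, at 40652 to 42078 FPKM against 52046 to 71911 on LF, while the 9 stellate cell and fibroblast markers summed to 106 to 207 against 56.5 to 101 FPKM. Their part in the values of the 86 genes was not tested.

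Genes above their LF level on HF were few, and they did not belong to 1 complex. Sdha held 439, 424 and 323 normalised CPM in the LF floxed libraries and 460, 442 and 465 in the HF floxed ones. All 3 HF values lay above the LF ones, by less than the standard error of the fit (log2 difference 0.21, SE 0.24). Ndufs1, a core subunit of complex I, had the same order at 94.3, 96.3 and 75.2 against 99.7, 105 and 96.9 normalised CPM. Ndufaf7, an assembly factor of complex I, stood at 0.39 and completes the 3 genes whose HF libraries all lay above the LF ones. Atp5g2 had the largest positive difference of the 86 at 0.82 (SE 0.42, edgeR adjusted p = 0.443). It rested on HF floxed replicates 1 and 2, the near-identical pair, at 40.0 and 35.3 normalised CPM, while replicate 3 stood at 17.1 within the LF range of 12.5 to 23.3.

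**Figure D2:**
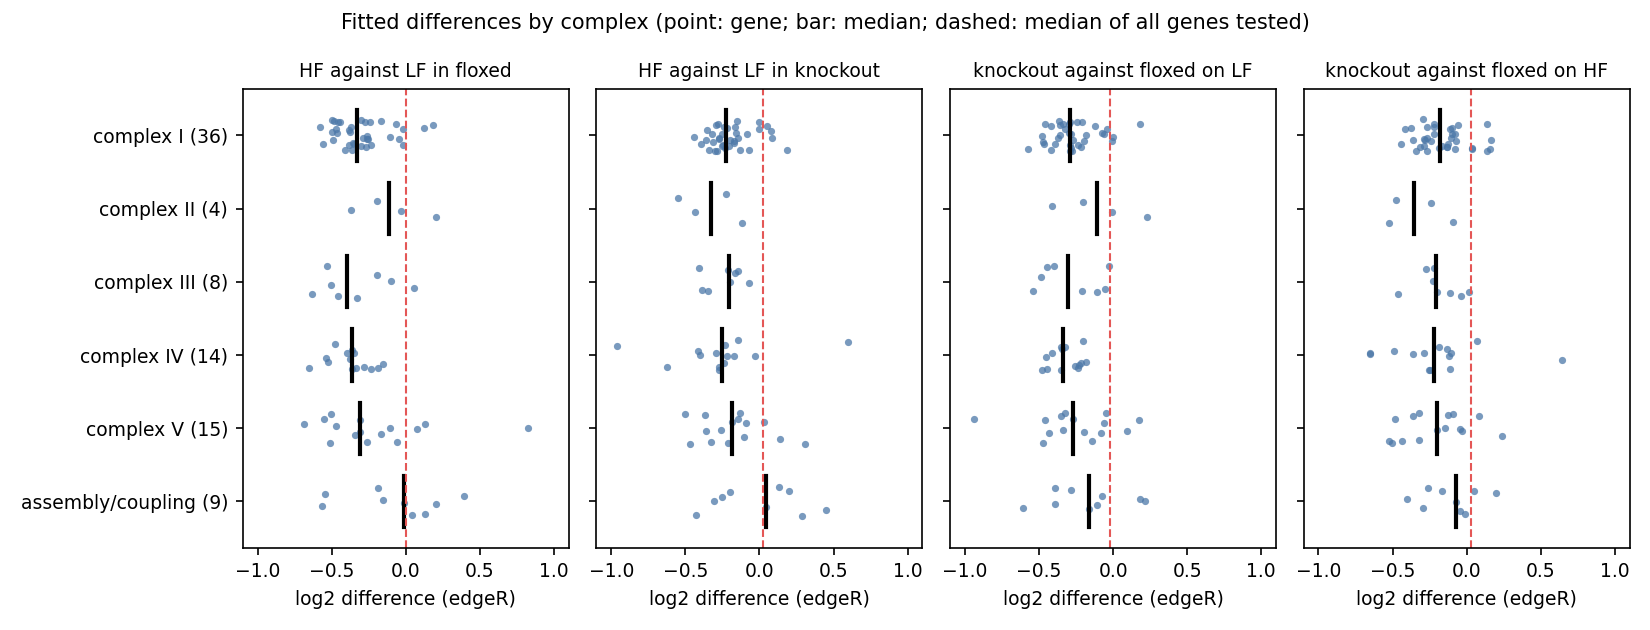
Horizontal axes give the fitted log2 difference of each gene in 4 comparisons and rows give the complexes with their number of genes; bars are medians and the dashed line is the median of all genes tested. Most points lie left of 0 in each panel, and for HF against LF in floxed mice the bars of complexes I, III, IV and V stand between -0.39 and -0.31.

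The lower values between diets in floxed mice moved with transcript length. The 86 genes are short: 57 of them (66.3%) measured under 1000 bases in the files, against 6.6% of all genes tested, and their median was 746 bases against 2868. Between diets in floxed mice the 57 shorter genes had a median log2 difference of -0.36 and the 29 longer ones -0.10. All genes tested showed medians of -0.27 under 1000 bases (831 genes) and 0.02 above. Spearman's rho between length and difference was 0.478 across the 86 genes and 0.17 across all genes, which share the same libraries and are not independent replicates. With the trend of each library on gene length removed, the median of the 86 genes was -0.052 with 52 lower and 34 higher. On the FPKM scale (limma, log2(FPKM + 1)) it was -0.062, where the median of all genes was 0.20. Uqcrh stood at -0.29 with the length trend removed, and Ndufa6 at -0.24. Genes of cytosolic ribosomal proteins had a median of -0.58 in the same comparison. At an unadjusted p under 0.05, 38 of 77 were lower (5.32% of all genes). They had medians of 0.32 between diets in knockout mice, -0.58 between genotypes on LF and 0.31 between genotypes on HF. In the interaction their median was 0.92, with 52 of 77 higher at an unadjusted p under 0.05 (5.21% of all genes). In both pairwise comparisons with HF knockout their sign was opposite to that of the 86 genes' median over all 12 libraries. Without HF knockout replicate 2 the median of the 86 genes was 0.019 between diets in knockout mice and 0.028 between genotypes on HF. The ribosomal protein genes were not summarised without that library.

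**Figure D3:**
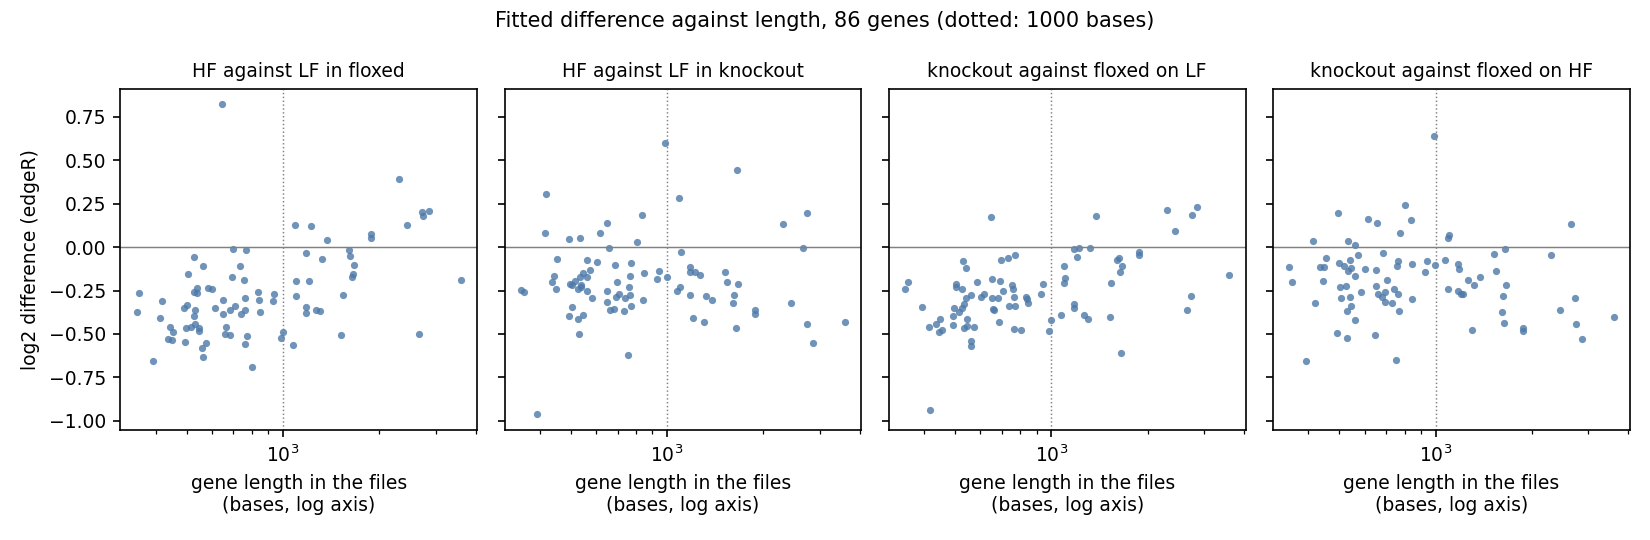
Horizontal axes give gene length in bases on a log axis and vertical axes the fitted log2 difference, with 1 point per gene and a dotted line at 1000 bases. The 57 shorter genes have a median of -0.36 and the 29 longer ones -0.10 between diets in floxed mice, and -0.21 against -0.25 between diets in knockout mice.

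Next, the diets were compared within the mice labelled knockout. Here 73 genes had a lower fitted mean on HF and 13 a higher one, with a median log2 difference of -0.22 against 0.03 over all genes. None passed at an adjusted p under 0.05 in edgeR (0% of all genes did), and 2 were lower at an unadjusted p under 0.05, against 12.2% of all genes in either direction (3.38% lower, 8.81% higher). DESeq2 and voom also called 0 of the 86, each with 3 at an unadjusted p under 0.05 (13.8 and 12.5% of all genes). The groups did not overlap in 6 genes, all lower on HF, against 6.75% of all genes lower and 7.17% higher. By complex the medians were -0.22 in I, -0.33 in II, -0.21 in III, -0.26 in IV, -0.18 in V and 0.05 among the factors. Without HF knockout replicate 2 the median of the 86 genes was 0.019, with 49 higher and 37 lower, and without HF knockout replicate 1 it was -0.54, with 81 lower and 30 at an unadjusted p under 0.05 (19.8% of all genes). With the length trend removed over all 12 libraries the median was -0.26, with 15 genes at an unadjusted p under 0.05 (13.7% of all genes). Within HF knockout, replicate 3 had summed neutrophil markers of 516 FPKM against 1.32 to 11.66 in the other 11 libraries, and how these relate to the 86 genes was not tested.

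Sdha held 445, 482 and 462 normalised CPM in LF knockout and 313, 214 and 421 in HF knockout. The HF libraries all lay below the LF ones, and replicate 3 lay close to them. This was a log2 difference of -0.55 (SE 0.25, edgeR adjusted p = 0.403, unadjusted 0.0454) and -0.34 without HF knockout replicate 2. Atp5f1, a stalk subunit of ATP synthase, held 291, 255 and 237 normalised CPM on LF and 212, 139 and 216 on HF, without overlap. Its log2 difference was -0.47 (SE 0.20, edgeR adjusted p = 0.388) and -0.29 without HF knockout replicate 2. Uqcrc2 held 243, 218 and 207 against 206, 111 and 194 normalised CPM, and its difference of -0.39 shrank to -0.16 without that library. Ndufs1 held 95.1, 105 and 102 normalised CPM on LF and 66.3, 55.1 and 101 on HF, so that 1 HF library lay within the LF range. Its log2 difference of -0.44 was -0.27 without HF knockout replicate 2 and -0.73 without replicate 3. Cox7a2, the liver form of a complex IV subunit, held 99.0, 83.7 and 82.4 on LF and 97.5, 34.7 and 40.2 on HF. Replicate 1 of HF knockout stood at the LF level for Cox7a2, and the difference of -0.62 was -1.25 without it and -0.36 without replicate 2. Ndufaf4, an assembly factor of complex I, stood at -0.43, at -0.080 without HF knockout replicate 2 and at -0.98 without replicate 1.

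**Figure D4:**
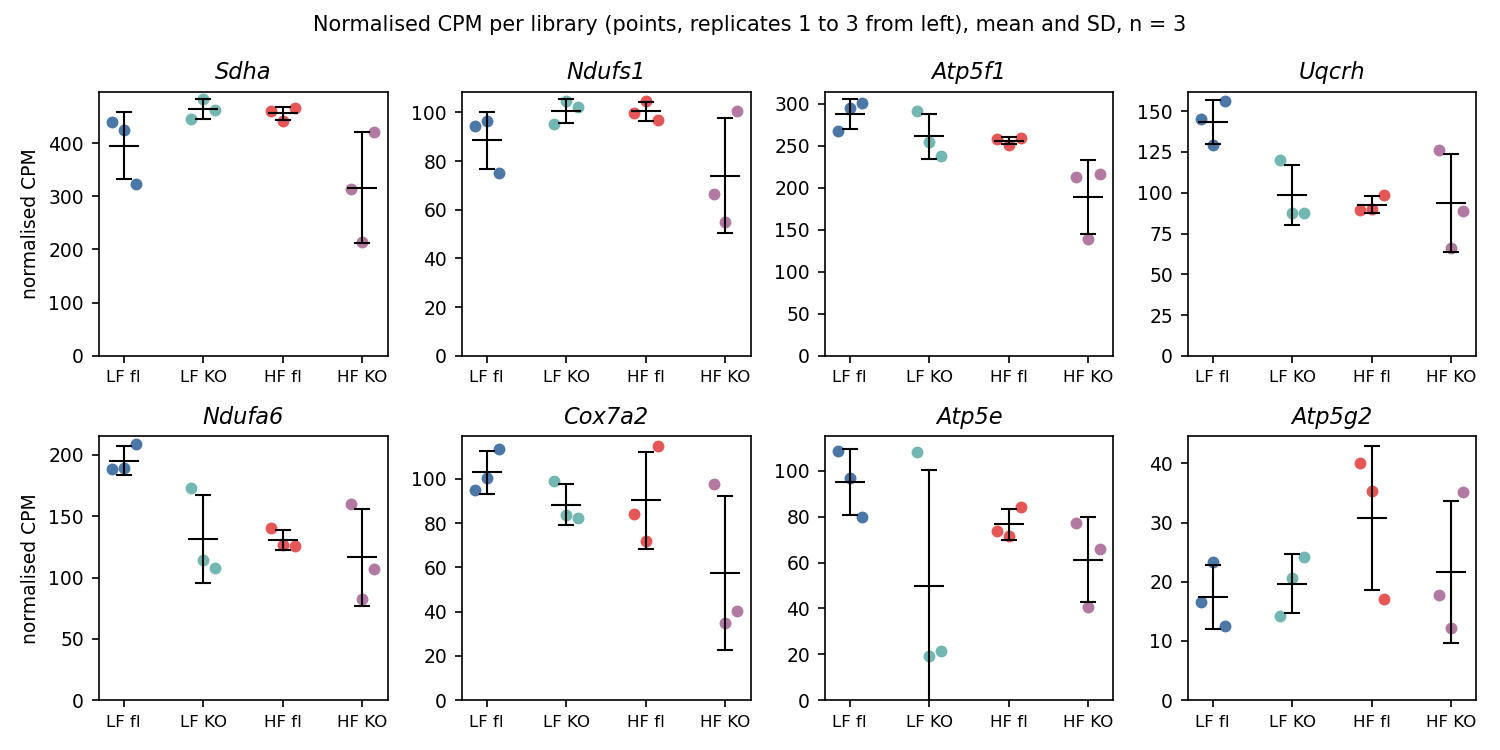
Vertical axes give normalised CPM from 0 and horizontal axes the 4 groups (fl, floxed; KO, labelled knockout); points are single libraries, the cross bar is the mean and the whiskers the SD (n = 3). Uqcrh and Ndufa6 are highest in the 3 LF floxed libraries, Sdha and Atp5f1 are lowest in HF knockout replicate 2, and Atp5e stands at 19.3 and 21.4 in LF knockout replicates 2 and 3.

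The genotypes were then compared on the LF diet. Of the 86 genes, 80 had a lower fitted mean in the libraries labelled knockout and 6 a higher one, with a median log2 difference of -0.29 against -0.02 over all genes. None passed at an adjusted p under 0.05 in edgeR (0.0159% of all genes did), and 2 were lower at an unadjusted p under 0.05 against 5.13% of all genes in either direction (2.55% lower, 2.58% higher). DESeq2 called 0 of the 86 with 2 at an unadjusted p under 0.05 (6.1% of all genes). With sample weights, voom called 13 of the 86 and 832 of all genes. The groups did not overlap in 12 lower genes and 1 higher gene, where the shares of all genes were 6.9 and 6.53%. By complex the medians were -0.29 in I, -0.11 in II, -0.31 in III, -0.33 in IV, -0.27 in V and -0.16 among the factors. These values also moved with length: the median was -0.32 over the 57 shorter genes and -0.11 over the 29 longer ones, Spearman's rho across the 86 genes was 0.453 (0.308 across all genes), and with the length trend removed the median was 0.023, with 47 higher and 39 lower. On the FPKM scale it was -0.12, where the median of all genes was 0.12. The summed erythroid markers (5 genes in the files) were 752 to 1565 FPKM in LF knockout against 408 to 423 in LF floxed, and the 7 endothelial markers 51.4 to 53.5 against 28.4 to 47.9 FPKM, both without overlap. Their part in the values of the 86 genes was not tested.

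The comparison of genotypes on LF and that of diets in floxed mice share the LF floxed libraries. Uqcrh and Ndufa6 stood at an unadjusted p under 0.05 in both. With the near-identical pairs averaged neither did: by edgeR the unadjusted p was 0.0631 between diets and 0.135 between genotypes for Uqcrh, and 0.0876 and 0.168 for Ndufa6. Uqcrh held 120, 87.8 and 87.8 normalised CPM in LF knockout, below the LF floxed libraries given above (log2 difference -0.54, SE 0.23, edgeR adjusted p = 0.929, unadjusted 0.0348). Ndufa6 held 173, 114 and 108 normalised CPM, also below them (log2 difference -0.57, SE 0.25, edgeR adjusted p = 0.929). In both genes the near-identical replicates 2 and 3 were lower than replicate 1. Atp5e, the epsilon subunit of the central stalk of ATP synthase, was split within LF knockout, with 108, 19.3 and 21.4 normalised CPM in LF knockout against 109, 96.9 and 79.7 in LF floxed. LF knockout replicate 1 thus stood at the floxed level and replicates 2 and 3 below all other libraries. This was a log2 difference of -0.94 (SE 0.54, edgeR adjusted p = 0.929). It became -2.21 without LF knockout replicate 1 (edgeR adjusted p = 0.0171), which leaves the near-identical pair alone in that group, and -0.57 with that pair averaged. Cox7b of complex IV held 161, 151 and 168 normalised CPM in LF floxed and 143, 117 and 116 in LF knockout, without overlap (log2 difference -0.35). Sdhd stood at -0.41 and Atp5s at -0.61, and their groups overlapped. Sdhd ranged from -0.64 (without LF knockout replicate 1) to -0.27 (without replicate 3), and Atp5s from -1.02 (without replicate 2) to -0.24 (without replicate 1). Sdha was the 1 gene with non-overlapping higher values, at a log2 difference of 0.23 (SE 0.24, edgeR adjusted p = 0.929).

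The genotypes on the HF diet are the comparison nearest to the study's question. Lower fitted means in the libraries labelled knockout were found for 73 genes and higher ones for 13, with a median log2 difference of -0.19 against 0.03 over all genes. None passed at an adjusted p under 0.05 in edgeR (0% of all genes did), and 1 was lower at an unadjusted p under 0.05, against 7.65% of all genes in either direction (3.06% lower, 4.59% higher). DESeq2 and voom called 0 of the 86, with 5 and 1 at an unadjusted p under 0.05 (8.9 and 9.3% of all genes). The groups did not overlap in 7 genes, all lower in knockout, against 5.35% of all genes lower and 4.75% higher. These were Sdha and Sdhd of complex II, Uqcrc2 of complex III and Atp5a1, Atp5b, Atp5f1 and Atp5g3 of complex V, named after their values were seen. By complex the medians were -0.18 in I, -0.36 in II, -0.21 in III, -0.22 in IV, -0.20 in V and -0.07 among the factors. Without HF knockout replicate 2 the median of the 86 genes was 0.028, with 45 higher and 41 lower, and without replicate 1 it was -0.48, with 85 lower and 18 at an unadjusted p under 0.05 (13.4% of all genes).

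This comparison shares the HF knockout libraries with that of diets in knockout mice, and the named genes were the same 6. Sdha held 460, 442 and 465 normalised CPM in HF floxed against the 313, 214 and 421 of HF knockout (log2 difference -0.53, SE 0.25, edgeR adjusted p = 0.659). Atp5f1 held 258, 251 and 259 against 212, 139 and 216 (log2 difference -0.44, SE 0.20, edgeR adjusted p = 0.648, unadjusted 0.0478). Uqcrc2 held 230, 218 and 258 against 206, 111 and 194 normalised CPM. In each of these genes all 3 HF knockout libraries lay below the HF floxed ones, and replicate 2 was the lowest. Their log2 differences without HF knockout replicate 2 were -0.31, -0.26 and -0.24. Ndufs1 at -0.44, Cox7a2 at -0.65 and Ndufaf4 at -0.40 had overlapping groups, and without HF knockout replicate 2 they stood at -0.27, -0.39 and -0.051. Catalytic subunits were among the genes that did not overlap: Atp5b, which binds and makes ATP, held 1070, 977 and 1129 normalised CPM in HF floxed and 878, 546 and 850 in HF knockout (log2 difference -0.48, SE 0.24, edgeR adjusted p = 0.686). Length did not go with this comparison in the same way: the shorter genes had a median of -0.15 and the longer ones -0.24, and the median with the length trend removed was -0.21. On the FPKM scale 83 of the 86 genes were lower in the libraries labelled knockout, with a median of -0.36 against -0.11 over all genes and 18 at an unadjusted p under 0.05 (8.9% of all genes), none at an adjusted one. The summed hepatocyte markers were higher in HF knockout, at 46181 to 107733 FPKM against 40652 to 42078 in HF floxed, without overlap. Gene by gene, 6 of the 10 were higher and 4 lower, with a median log2 difference of 0.13 and 2 higher without overlap. Of the stellate cell and fibroblast markers 8 of 9 were lower (median log2 difference -0.63). Among them 3 stood at an unadjusted p under 0.05 (3.06% of all genes lower) and 2 were lower without overlap. Of the Kupffer cell markers 7 of 7 were higher (median 0.78). Here 3 stood at an unadjusted p under 0.05 (4.59% of all genes higher) and 0 were higher without overlap. The Kupffer cell markers summed to 138.61, 49.96 and 246.48 FPKM in HF knockout against 97.84, 98.33 and 58.94 in HF floxed. Replicate 2 of HF knockout thus lay below all HF floxed libraries. The part of all these markers in the values of the 86 genes was not tested.

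The interaction asks whether the diet difference depended on genotype. Its log2 value was above 0 for 53 of the 86 genes and below for 33, with a median of 0.07 against 0.05 over all genes. None passed at an adjusted p under 0.05 in edgeR (0.0159% of all genes did), and none stood at an unadjusted p under 0.05, against 9.55% of all genes (5.21% higher, 4.34% lower). DESeq2 called 0 of the 86 with 2 at an unadjusted p under 0.05 (11% of all genes), and voom called 0 with 13 (18.3% of all genes). The median changed sign with single libraries and with the scaling. It was 0.32 without HF knockout replicate 2, -0.23 without HF knockout replicate 1, -0.0073 without LF floxed replicate 3, -0.020 without LF knockout replicate 3 and -0.024 with the near-identical pairs averaged. It was -0.22 with the length trend removed and -0.26 on the FPKM scale, where the median of all genes was -0.23. Sdha had the smallest p, with a log2 value of -0.76 (SE 0.35, edgeR adjusted p = 0.522, unadjusted 0.0506) made from the library values given for it in both genotypes: higher on HF in floxed mice and lower in knockout mice. Ndufs1 followed the same order of means (-0.62, SE 0.30, edgeR adjusted p = 0.529). Uqcrh went the other way at 0.56, since HF floxed (92.6 ± 5.28), HF knockout (93.6 ± 30.1) and LF knockout (98.5 ± 18.5) all lay below LF floxed (143 ± 13.6 normalised CPM). Without HF knockout replicate 1 Uqcrh stood at 0.29. Atp5g1 of the ATP synthase ring stood at 0.72, at 0.19 without HF knockout replicate 1 and at 1.09 without LF knockout replicate 1. Ndufaf8 stood at 0.59, and at 0.23 without HF knockout replicate 1. Ndufa4l2 had the largest value at 1.12 (SE 0.56, edgeR adjusted p = 0.551), at levels between 0.955 and 2.92 normalised CPM in all 12 libraries.

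**Figure D5:**
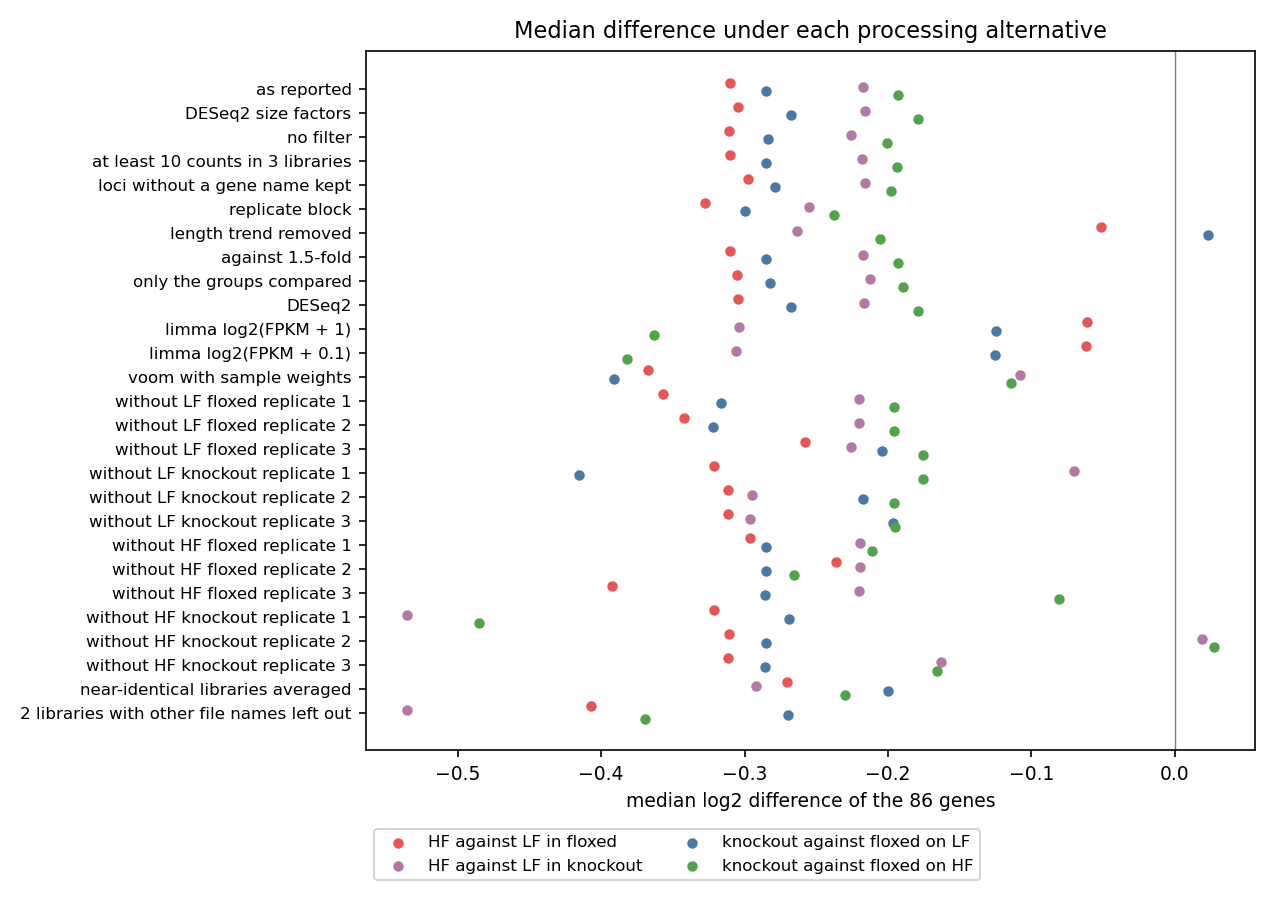
The horizontal axis gives the median log2 difference of the 86 genes and each row a processing alternative; colours are the 4 comparisons. The 2 comparisons with HF knockout move to 0.019 and 0.028 without HF knockout replicate 2, and those with LF floxed move to -0.052 and 0.023 with the length trend removed.

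Genes that work beside the respiratory chain were summarised from lists. The 18 tricarboxylic acid cycle genes, which supply the chain with NADH and succinate, had a median log2 difference of 0.09 between diets in floxed mice. Of them 4 were higher at an unadjusted p under 0.05 (6.85% of all genes) and 0 at an adjusted one. In knockout mice all 18 were lower on HF, with a median of -0.29 and 3 lower at an unadjusted p under 0.05 (3.38% of all genes). On HF all 18 were lower in the libraries labelled knockout, with a median of -0.38. Of them 6 were lower at an unadjusted p under 0.05 (3.06% of all genes), led by Pdhb, a subunit of pyruvate dehydrogenase, at -0.85 (edgeR adjusted p = 0.537). Without HF knockout replicate 2 the medians between diets in knockout mice and between genotypes on HF were -0.14 with 13 lower and -0.18 with 15 lower. At an unadjusted p under 0.05 then stood 1 and 3 lower genes (8.8 and 8.1% of all genes in either direction). The 21 electron carriers and exchangers had a median of -0.27 between genotypes on HF, with 2 lower at an unadjusted p under 0.05 (3.06% of all genes). These were Cycs, the cytochrome c that links complexes III and IV, at -0.70 (edgeR adjusted p = 0.600) and Coq7, an enzyme of ubiquinone synthesis, at -0.65. Without HF knockout replicate 2 that median was -0.077, with 16 lower. The 44 tested assembly factors outside the symbol pattern had medians between -0.11 and -0.06 over the 5 comparisons. Without HF knockout replicate 2 these were 0.039 between diets in knockout mice, 0.063 between genotypes on HF and 0.11 in the interaction, and with the length trend removed 0.028 between diets in floxed mice and 0.020 between genotypes on LF. The 78 mitochondrial ribosomal protein genes had medians of -0.21 between diets in floxed mice, -0.08 in knockout mice, -0.22 between genotypes on LF and -0.05 on HF. Among 18 tested regulators of mitochondrial biogenesis, 3 stood at an unadjusted p under 0.05 between diets in floxed mice, in both directions. The share of all genes at that level was 12.2%. Esrrb, an estrogen-related receptor, had the smallest p and was higher on HF at 1.79 (SE 0.61, edgeR adjusted p = 0.311). Esrra, a receptor of the same family that drives respiratory genes, stood at -0.69 (SE 0.24, edgeR adjusted p = 0.313) and the deacetylase gene Sirt1 at -0.61. No gene of these lists passed edgeR's test at an adjusted p under 0.05 in any of the 5 comparisons.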

How the data were processed

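The members and gene lists were chosen with earlier results of these data known. Each library had 1 deposited file with an estimated count and an FPKM per gene: the authors estimated counts without scaling and scaled FPKM to gene length and library, per the file headers. The submitters' processing notes name the build mm9; the aligner and counter used are not given here. How reads shared with pseudogenes or near-identical copies, or from the opposite strand, were assigned is not given either, and respiratory genes have many such copies. Libraries held 16131506 to 16536016 estimated counts, of which 6.65 to 17.33% fell on 1229 unnamed loci that were left out; for 3825 named genes, a file that did not list the gene was read as 0. Rounded counts were fitted with edgeR 4.0.16 (TMM, filterByExpr, quasi-likelihood F tests, 1 mean per group over 12 libraries) in R 4.3.3, with Benjamini-Hochberg adjustment over 12587 genes; all 86 members passed the filter. The code was tested on simulated data. Alternatives used DESeq2 1.42.0, limma 3.58.1 (FPKM with a pseudocount of 1 or 0.1, or voom), other filters and scalings, and left-out libraries. Named genes per comparison and complex were those at an unadjusted p under 0.05 with the smallest p in each direction, or else the 1 of smallest p; by levels, the highest and lowest of each complex and the isoform families. Other genes were named after their values were seen. Medians over genes have no test, and the median standard error of a log2 difference was 0.277.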

Additional observations from a re-analysis of the deposited data

How the results depend on the processing

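Among the values of the 30 named gene and comparison pairs, 764 kept their direction and side of the threshold, 10 newly passed it and none reversed. The pairs had been picked by their p in these same data, and the alternatives reuse most of the libraries. Kept directions were therefore likely from the start and are no independent support. No pair passed the threshold as reported, so a kept side means that the gene was still not called. The count of members at an adjusted p under 0.05 stayed at 0 except with voom and sample weights, 13 between diets in floxed mice and 13 between genotypes on LF, and without LF knockout replicate 1, where it was 1 (Atp5e) between genotypes on LF; leaving out each library in turn gave 0 to 1 there and 0 in the other 4 comparisons. Counts over all genes varied widely. Between diets in floxed mice (0) they were 252 with DESeq2, 1510 with voom, 158 without the 2 libraries whose files are named in another form (HF floxed replicate 3 and HF knockout replicate 1), 82 with only the groups compared, 3 with unnamed loci kept, 1 without a filter, 1 with limma at a pseudocount of 0.1, and 0 to 14 with each library left out (14 without HF floxed replicate 3). Between diets in knockout mice (0) they were 133 with DESeq2, 9 with voom, 2 without those 2 libraries and 0 to 10 with each library left out (10 without HF knockout replicate 3). Between genotypes on LF (2) they were 34 with DESeq2, 832 with voom, 7 without those 2 libraries, 11 with only the groups compared, 1 with limma at a pseudocount of 0.1, 0 each with limma at a pseudocount of 1, against a change of 1.5-fold, with the length trend removed, with near-identical libraries averaged and with the replicate block, and 0 to 13 with each library left out (13 without LF knockout replicate 1). Between genotypes on HF (0) they were 55 with DESeq2, 3 without those 2 libraries and 0 to 14 with each library left out (14 without HF knockout replicate 3). For the interaction (2) they were 107 with DESeq2, 34 with voom, 5 without those 2 libraries, 1 with unnamed loci kept, 0 with near-identical libraries averaged, 1 with the replicate block and 1 to 17 with each library left out (17 without HF knockout replicate 3). The cause of these shifts was not tested. The median of the 86 genes ranged from -0.54 (without HF knockout replicate 1) to 0.019 (without HF knockout replicate 2) between diets in knockout mice and was -0.54 without the 2 libraries of other file names. Without those 2 it was -0.41 between diets in floxed mice and -0.37 between genotypes on HF, which leaves the near-identical pair alone in HF floxed. Members at an unadjusted p under 0.05 then numbered 24 between diets in floxed mice (18.3% of all genes), 31 in knockout mice (20.4%) and 9 between genotypes on HF (9.7%). For the interaction it ranged from -0.23 to 0.32 with each library left out and was -0.26 and -0.27 with limma at pseudocounts of 1 and 0.1. Between genotypes on LF it was 0.023 with the length trend removed and -0.42 to -0.20 with each library left out, between genotypes on HF -0.48 to 0.028, and between diets in floxed mice -0.39 to -0.24. Samples of the same number did not deviate together more than others. Their 18 pairs had a median r of -0.034, with 4 over 0.1 and a highest of 0.417. The 36 pairs of other numbers had a median of 0.008, with 11 over 0.1. Their highest, 0.563, joined the 2 libraries with other file names. These values gave no ground for pairing by number, but cannot exclude that the numbers mark shared handling. With the replicate block the member medians were -0.33, -0.25, -0.30 and -0.24 in the order of the report. With 3 libraries a group, differences near the median standard error could not be told from the spread.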
